A study of Mus musculus with 26 samples.

Results

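Genes for the cilium and its transport machinery were followed through 26 mouse RNA libraries, of which 10 came from sorted cells of the developing retina. The set held 33 gene symbols given for this work and chosen with earlier results of these data known. A row was taken where the name in the deposited table matched a symbol and all 26 values were filled. This gave 32 genes out of the 25146 gene rows used. They fell into 2 genes for the IFT-A complex, 10 for IFT-B, 7 BBSome subunits, 3 genes for BBSome assembly and recruitment, 6 genes of the transition zone and ciliary base, and 4 for motors and cargo. The remaining symbol, Ift43, had no row under that name, and the row that carries its gene ID under another name is described apart from the counts.

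The primary cilium is a microtubule-based antenna that grows from a basal body, and the photoreceptor outer segment, where light is captured, is a highly modified cilium. Proteins are carried along the cilium by intraflagellar transport (IFT): the IFT-B complex with kinesin-2 motors moves cargo towards the tip, and the IFT-A complex with a dynein returns it. The BBSome is a coat-like complex that sorts membrane proteins in and out of the cilium, and the transition zone, which in photoreceptors forms the connecting cilium, is the gate at its base. Loss of many of these genes is known to cause retinal degeneration in humans and mice.

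The retinal groups, all sorted by flow cytometry, were P0_PRP_GFP+ (postnatal day 0, GFP-positive cells), P4_PRP_GFP+CD73- (day 4, GFP-positive and CD73-negative by its name), and P4_PRP_CD73+, P6_PRP_CD73+ and P10_PRP_CD73+ (days 4, 6 and 10, CD73-positive), and are called P0, P4 CD73-, P4 CD73+, P6 and P10 here. CD73 is a surface enzyme found on developing rods. These mice, like those that gave the intestine and spleen, were C57BL/6 animals homozygous for EGFP fused to the N terminus of BLIMP1, a transcriptional repressor, so GFP reports BLIMP1 protein and none of these libraries comes from an animal without the fusion. The B lineage groups were B220-positive splenic B cells from animals 8 to 10 weeks old and 3 populations sorted after such cells had been stimulated for 3 days with IL-4 at 2 ng/mL and LPS at 10 ng/mL: Blast (GFP- CD138-), prePB (GFP+ CD138-) and PB (GFP+ CD138+). The intestinal groups were epithelium of the embryo (E16.5_emIE, sorted for GFP and EPCAM) and at postnatal days 3 and 14 (P3_IE and P14_IE, sorted for EPCAM). The d2 PGCLC group held primordial germ cell-like cells 2 days after cytokine induction from an embryonic stem cell line of mixed C57BL/6 and 129 background with the alleles Blimp1-mVenus, stella-ECFP and Rosa26-rtTA, sorted for the Blimp1 reporter. Each of the 13 groups had 2 libraries, made by 3' RNA-seq amplified from 1 ng of RNA, and the labels do not say whether the 2 came from separate animals or cultures, so every p-value here rests on the spread between such library pairs alone.

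Levels are the deposited read counts scaled to library size (RPM). In 3' libraries a gene gives about the same number of tags whatever its length, and the values were not scaled by length. Levels of single genes are compared between samples and not between genes. Depth was estimated by taking the commonest value above 0 of a library as 1 read. It was 1720000 to 6040000 reads per library and 2580000 to 5600000 in the retina, so 1 read was worth 0.166 to 0.583 RPM. Photoreceptor markers (8 of 8 found) summed to 2508 to 28160 RPM in the retinal libraries, against at most 29.9 RPM in B lineage, 57.9 RPM in intestine and 5.24 RPM in d2 PGCLC libraries. B lineage markers summed to 1925 to 9955 RPM in the B lineage libraries, against at most 14.1 RPM in retina, and intestinal epithelial markers to 3405 to 6161 RPM in intestine, against at most 49.5 RPM in retina. The 6 germ cell-like markers summed to 1404 and 1474 RPM in d2 PGCLC, against at most 17.4 RPM in retina. Differences were tested with limma on log2(RPM + 1), which understates changes of low genes. A gene is written as called, risen or fallen where the Benjamini-Hochberg adjusted p over all genes tested was below 0.05 and the log2 fold change was at least 1 in size. Of the 32 genes, 31 passed the filter of 5 RPM in at least 2 libraries of the fit, and Kif17, a homodimeric kinesin-2 motor of cilia, did not. In sorted bulk samples, fewer cells of a type and less RNA per cell cannot be told apart.

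Many ciliary promoters are known to hold an X-box, the motif bound by RFX transcription factors, so the windows from 250 bases before to 50 bases after the RefSeq start were searched on both strands. The letters searched were GTNNCC and GNAAC with 2 to 4 bases of any kind between them for the X-box, GTTGCC for its left arm, which can lie inside an X-box, and TAATCC for the core of the site bound by CRX and OTX factors of photoreceptors. An X-box match lay in 7 of the 29 windows that could be matched to a member (24.1%), against 14 of 58 windows of other cilium genes (24.1%) and 4.70% of 18305 windows of all genes. The left arm lay in 11 of 29 (37.9%), against 39.7% of the other cilium genes and 12.5% of all genes. The CRX and OTX core lay in 2 of 29, Rpgrip1 and Bbs1 (6.90%), against 6.59% of all genes. A match is a description of letters and not a binding site. The 150 bases before the start, on the strand of the gene, are shown for Bbs7 and Ift57, which were called higher at P10 than at P0. They are also shown for the kinesin gene Kif3a, which was not called between these groups, and for Kif17, which was too low to be tested. Rpgrip1, the gene with the largest difference between P10 and P0, is the last. Capitals mark an X-box match in Bbs7, Ift57 and Kif17, the left arm in Kif3a and the CRX and OTX core (as GGATTA, its reverse strand) in Rpgrip1. The positions are those of RefSeq on GRCm38.p6: Bbs7 chr3:36613390-36613539 on the minus strand, Ift57 chr16:49699144-49699293, Kif17 chr4:138262101-138262250, Kif3a chr11:53567219-53567368 and Rpgrip1 chr14:52110753-52110902, all 4 on the plus strand. The starts used for Bbs7, Kif3a and Rpgrip1 lie inside the annotated gene, downstream of its outermost end.
Bbs7: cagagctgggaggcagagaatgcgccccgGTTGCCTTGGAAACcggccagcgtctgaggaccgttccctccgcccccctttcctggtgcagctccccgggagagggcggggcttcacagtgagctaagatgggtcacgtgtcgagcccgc
Ift57: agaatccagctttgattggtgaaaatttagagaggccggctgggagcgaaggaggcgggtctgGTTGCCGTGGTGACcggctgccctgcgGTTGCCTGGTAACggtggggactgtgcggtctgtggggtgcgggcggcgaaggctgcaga
Kif17: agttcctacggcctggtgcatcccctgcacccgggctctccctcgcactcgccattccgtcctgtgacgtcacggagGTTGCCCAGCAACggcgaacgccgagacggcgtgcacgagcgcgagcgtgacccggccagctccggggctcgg
Kif3a: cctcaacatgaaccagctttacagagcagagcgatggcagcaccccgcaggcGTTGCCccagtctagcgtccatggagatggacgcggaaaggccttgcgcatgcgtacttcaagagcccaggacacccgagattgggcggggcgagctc
Rpgrip1: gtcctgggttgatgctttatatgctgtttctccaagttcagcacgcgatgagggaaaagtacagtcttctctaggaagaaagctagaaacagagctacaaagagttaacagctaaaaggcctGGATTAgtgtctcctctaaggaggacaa
The Bbs7 match spans positions -121 to -108 from the start. Ift57 holds matches at -87 to -74 and at -60 to -48, the first read on the other strand, and Kif17 holds one at -73 to -61. Among the members, X-box matches lay in Bbs1, Bbs4, Bbs7, Ahi1 and Ift57, which were called higher at P10 than at P0. They also lay in Ift74, which was not called there, and in Kif17, which stayed at or below 1.68 RPM in every library of the series. Rpgrip1, Arl6, Bbs5, Bbs9, Cep290, Ttc8 and Bbs12, also called higher at P10 than at P0, held none. Ift80, Ift81 and Ift122, called higher as well, had no window.

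The cilium genes were lowest at P0 and highest at P10 in most cases. The group mean was highest at P10 among the retinal groups for 26 of 32 genes and lowest at P0 for 27, and for 13 genes the 5 retinal means were in the order of the groups without a step down. Summed over the 32 genes, the level was 1356 and 1099 RPM at P0, 1991 and 1807 RPM in P4 CD73-, 3371 and 3062 RPM in P4 CD73+, 2948 and 3376 RPM at P6, and 4722 and 4636 RPM at P10. The P4 CD73+ and P6 sums overlap and the other neighbours do not. Across all 13 groups, 29 of the 32 genes had their highest mean in a retinal group. The exceptions were Ift20, highest in PB, Ift140, highest in splenic B cells, and Tulp3, highest in d2 PGCLC. These counts of highest, lowest and ordered means were not made over all genes. They include Kif17, whose highest group mean was 1.36 RPM. The median log2 fold change of all genes was itself above 0 for retina against B lineage (0.82), intestine (0.49) and d2 PGCLC (0.32).

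**Figure D1:**
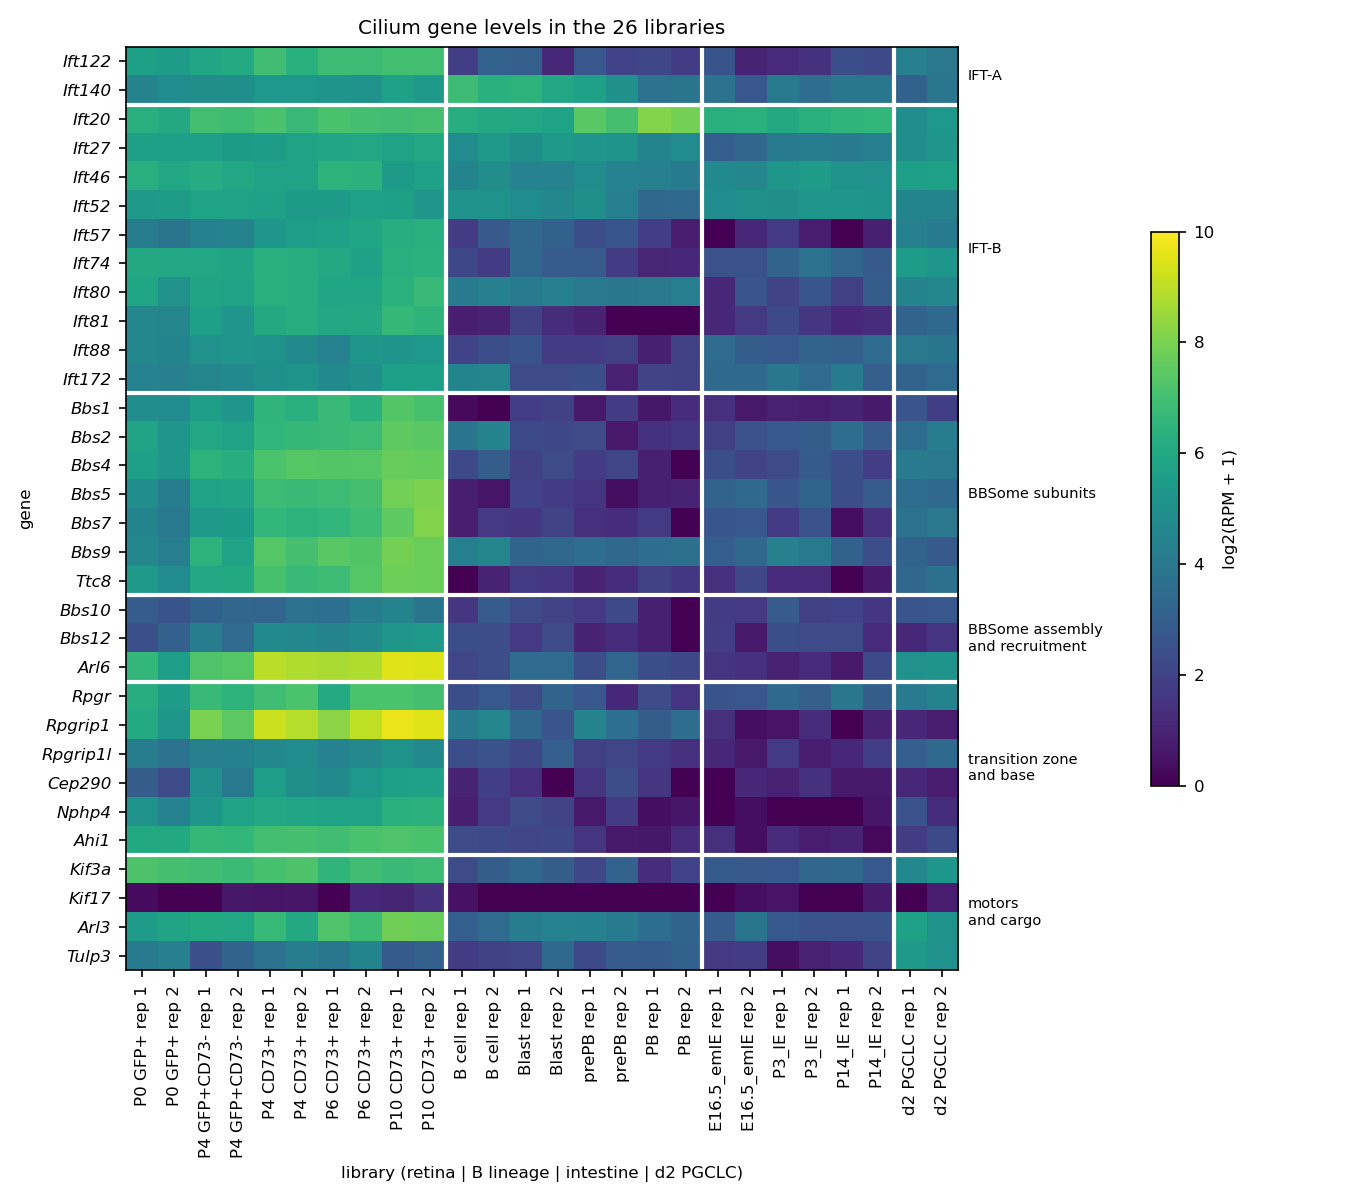
Levels of the 32 cilium genes (rows, by role) in the 26 libraries (columns, by lineage), as log2(RPM + 1) on the colour scale. The 10 retinal columns are brighter than the B lineage and intestinal columns in most rows. Ift140 is brightest in the B cell and Blast columns, and Ift20 in the PB columns.

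Which genes of the ciliary machinery differ between young and later photoreceptor precursors was asked by setting P10 against P0. At P10, 22 of the 31 genes tested were called higher and 1 lower, against a background of 15.8% of the 11704 genes tested called higher and 20.1% called lower. The median log2 fold change of the 31 genes was 1.39, beside -0.10 for all genes. Both P10 libraries lay above both P0 libraries for 27 of the 31 genes, against 34.6% of all genes tested. By role, all 7 BBSome subunits, all 3 assembly and recruitment genes and all 6 transition zone genes rose, against 1 of 2 IFT-A genes and 4 of 10 IFT-B genes, and the difference between roles was not tested. The sort differs between these groups along with age, since P0 cells were taken for GFP and P10 cells for CD73, and the effects of age and sort cannot be told apart.

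Other cell markers moved in the same comparison. The 6 proliferation markers summed to 13.5 and 9.25 RPM at P10, against 2072 and 1744 RPM at P0. The 5 bipolar cell markers summed to 651 and 584 RPM at P10, against 37.5 and 36.4 RPM at P0, where Vsx1 was at 0 in both libraries and Grm6 in 1. The 7 amacrine, horizontal and ganglion cell markers summed to 243 and 224 RPM at P10, with Pou4f2 at 0 in both libraries, against 27.3 and 36.1 RPM at P0, with Lhx1 at 0 in both. Most of the P10 sum was Isl1, which bipolar cells also express, with a mean of 220.9 RPM at P10 and 2.74 RPM at P0 (log2 fold change 5.93 ± 0.33). Of the same list Tfap2b fell (1.14 RPM at P10 and 13.5 RPM at P0, -2.79 ± 0.45), as did Tfap2a (1.19 and 5.19 RPM, -1.45 ± 0.55), and Rbpms was not called (-0.09 ± 0.39). The 6 retinal progenitor markers summed to 666.5 and 479.8 RPM at P10, against 1158 and 1270 RPM at P0. The 5 Muller glia markers summed to 243.9 and 293.1 RPM at P10, against 539.7 and 582.9 RPM at P0, where Aqp4 was at 0 in both libraries. The 4 endothelial markers summed to 25.7 and 20.5 RPM at P10, where Cdh5 was at 0 in both libraries, against 99.6 and 98.5 RPM at P0, and the 5 microglial and myeloid markers to 15.8 and 29.4 RPM at P10, against 31.3 and 73.4 RPM at P0. None of these sums overlapped between P10 and P0. The 8 photoreceptor markers summed to 24910 and 28160 RPM at P10, against 2812 and 2508 RPM at P0. The part of these shifts in the values of the cilium genes was not tested.

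Among transition zone genes, Rpgrip1 (chr14:52104241-52161339), which anchors the GTPase regulator RPGR at the connecting cilium, had the largest difference of the set. It had 68.6 and 38.2 RPM at P0, 252 and 179 RPM in P4 CD73-, 583 and 478 RPM in P4 CD73+, 308 and 519.7 RPM at P6, and 846 and 729.5 RPM at P10. All P10 values were above all others, and the P6 libraries were far apart. Its log2 fold change for P10 against P0 was 3.91 ± 0.26 (SE, adjusted p = 2.9e-09, limma). Cep290 (chr10:100487548-100575671), a large scaffold of the transition zone, had 6.79 and 3.96 RPM at P0, 31.6 and 15.6 RPM in P4 CD73-, 47.4 and 30.1 RPM in P4 CD73+, 26.7 and 39.1 RPM at P6, and 49.9 and 51.1 RPM at P10. The P0 libraries were the lowest, and the 3 middle groups overlap one another. Its log2 fold change was 3.05 ± 0.34 (adjusted p = 1.3e-06).

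The other transition zone genes rose less. Nphp4, a nephronophthisis gene of the transition zone, averaged 82.4 RPM at P10 and 26.65 RPM at P0 (log2 fold change 1.63 ± 0.22). Rpgr, the regulator that RPGRIP1 holds in place, averaged 136.5 RPM at P10 and 58.4 RPM at P0 (1.26 ± 0.28), and Ahi1, a Joubert syndrome gene, 147 and 66.6 RPM (1.13 ± 0.14). Rpgrip1l, the paralog of Rpgrip1 that is used by most ciliated cells, averaged 30.6 RPM at P10 and 14.65 RPM at P0 (1.02 ± 0.26). Without P0 replicate 2, Rpgr and Rpgrip1l fell below the fold threshold, at 0.88 and 0.79, and Rpgrip1l also did so without P10 replicate 1, at 0.85.

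The 7 BBSome subunits rose together, with log2 fold changes of 1.92 to 3.54 and a median of 2.65. Bbs7 (chr3:36573142-36613492), a subunit of the complex, had 21.9 and 15.4 RPM at P0, 40.5 and 42.7 RPM in P4 CD73-, 97.6 and 87.0 RPM in P4 CD73+, 95.5 and 117 RPM at P6, and 185 and 272 RPM at P10. Its P10 libraries were the highest and its P0 libraries the lowest, and P4 CD73+ and P6 overlap (log2 fold change for P10 against P0 3.54 ± 0.21, adjusted p = 8.7e-10). Bbs5 (chr2:69646848-69667571), a subunit that binds phosphoinositides, had 28.7 and 17.7 RPM at P0, 53.4 and 56.6 RPM in P4 CD73-, 116 and 109 RPM in P4 CD73+, 116 and 132 RPM at P6, and 231 and 259 RPM at P10. The same order held, with the same overlap of P4 CD73+ and P6 (3.38 ± 0.19, adjusted p = 5.9e-10). Bbs9 (chr9:22475559-22888283), a structural subunit, had 23.5 and 18.6 RPM at P0, 87.0 and 54.0 RPM in P4 CD73-, 164 and 130.4 RPM in P4 CD73+, 172 and 154 RPM at P6, and 239.5 and 217 RPM at P10. As in Bbs7 and Bbs5, P4 CD73- stood clear of P0 (P10 against P0 3.38 ± 0.20).

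Ttc8, also called BBS8 (chr12:98920537-98983250), had 41.0 and 27.5 RPM at P0, 61.1 and 66.7 RPM in P4 CD73-, 137 and 107 RPM in P4 CD73+, 114 and 162 RPM at P6, and 219 and 214 RPM at P10 (P10 against P0 2.65 ± 0.21). Bbs1 (chr19:4886878-4906653), the subunit that contacts ARL6, had 28.5 and 27.2 RPM at P0, 48.0 and 37.3 RPM in P4 CD73-, 91.9 and 78.1 RPM in P4 CD73+, 106 and 81.3 RPM at P6, and 158 and 135 RPM at P10 (2.35 ± 0.19). In both genes P10 was highest and P4 CD73+ overlaps P6. Bbs4 (chr9:59321966-59353508), a subunit with repeated TPR helices, had 48.4 and 38.7 RPM at P0, 88.1 and 74.6 RPM in P4 CD73-, 144 and 168 RPM in P4 CD73+, 159 and 163 RPM at P6, and 202 and 196 RPM at P10 (2.18 ± 0.16). Both its P6 libraries lay between its P4 CD73+ libraries. Bbs2, a core subunit, averaged 176 RPM at P10 and 46.5 RPM at P0 (1.92 ± 0.18).

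Of the genes that build the BBSome or bring it to membranes, Arl6 (chr16:59612949-59639409), the small GTPase that recruits the complex, had 98.4 and 47.3 RPM at P0, 152 and 164 RPM in P4 CD73-, 499.6 and 447 RPM in P4 CD73+, 425 and 448 RPM at P6, and 737 and 718 RPM at P10. The groups other than P4 CD73+ and P6 did not overlap, and the P10 against P0 log2 fold change was 3.39 ± 0.22 (adjusted p = 3.1e-09). Bbs12 (chr3:37312547-37321450), a chaperonin-like assembly factor, had 4.49 and 7.45 RPM at P0, 17.6 and 10.4 RPM in P4 CD73-, 26.9 and 24.4 RPM in P4 CD73+, 21.4 and 25.9 RPM at P6, and 38.6 and 39.9 RPM at P10 (2.56 ± 0.30). Its P0 values were the lowest and its P10 values the highest, and P4 CD73+ and P6 overlap. Bbs10, its partner in assembly, stayed low, with a mean of 17.25 RPM at P10 and 5.84 RPM at P0 (1.39 ± 0.35). Without P10 replicate 1 Bbs10 lost its call, at 1.09 with an adjusted p of 0.051 in limma.

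**Figure D2:**
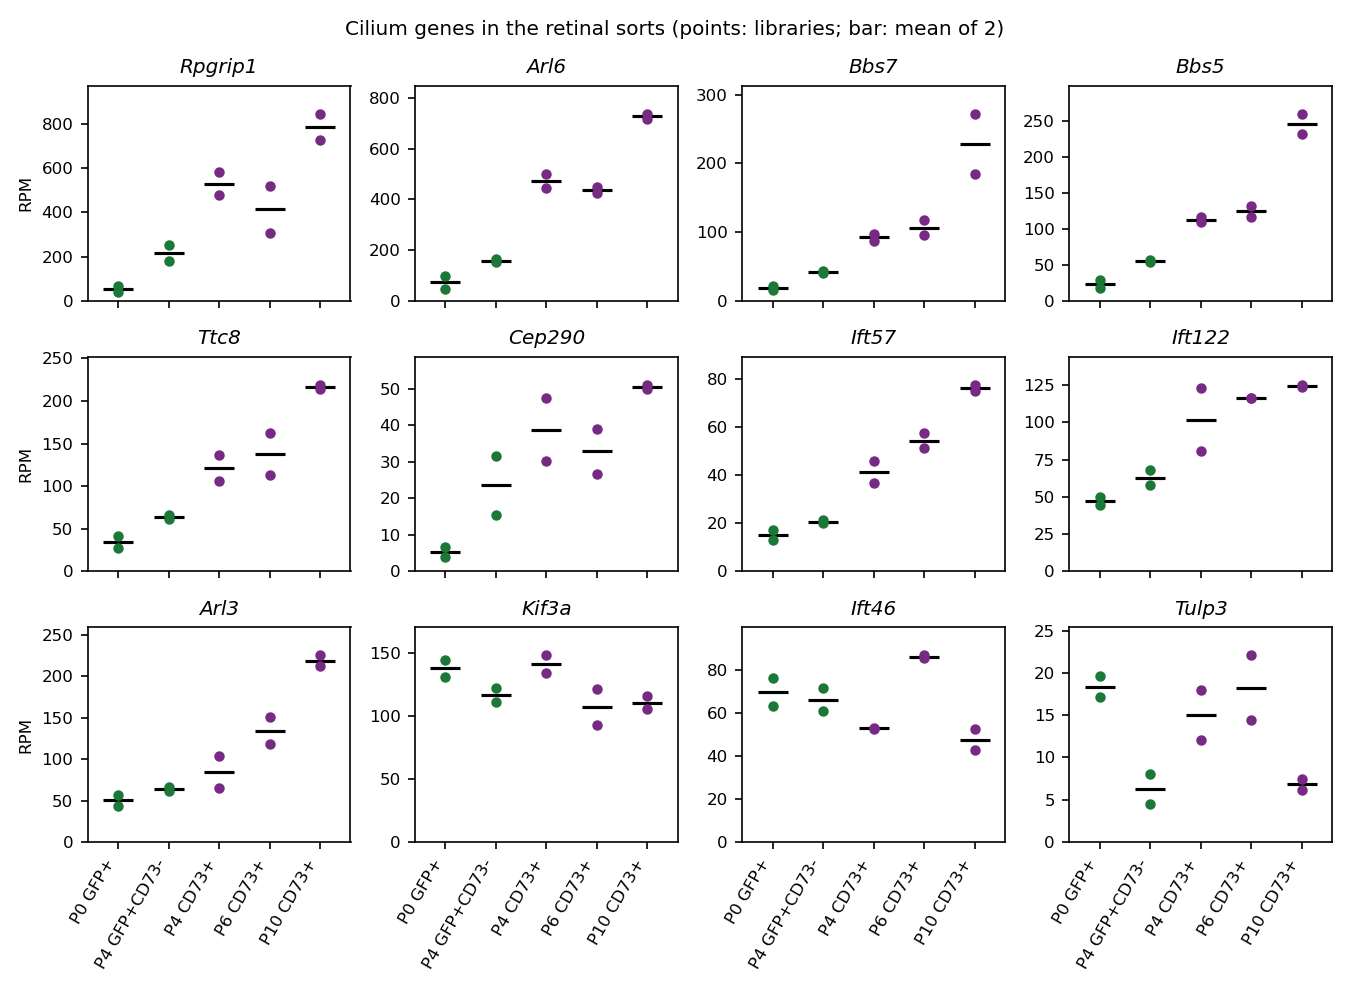
RPM of 12 cilium genes in the 10 retinal libraries, by sort and age (points are libraries, bars the mean of 2, the vertical axes start at 0 and differ between panels). Rpgrip1, Arl6, Bbs7, Bbs5, Ttc8, Cep290, Ift57, Ift122 and Arl3 are highest at P10, while Kif3a and Ift46 are not and Tulp3 is low in P4 CD73- and at P10.

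The transport complexes themselves were more mixed. Of the IFT-A genes, Ift122 (chr6:115853379-115926699), a core subunit, had 49.8 and 44.2 RPM at P0, 58.2 and 67.7 RPM in P4 CD73-, 123 and 80.7 RPM in P4 CD73+, 116 and 116 RPM at P6, and 125 and 124 RPM at P10 (P10 against P0 1.39 ± 0.18, adjusted p = 9.3e-06). P0 and P4 CD73- were each clear of the later groups, and the P4 CD73+ libraries were far apart. Ift140, the other core subunit tested, averaged 46.9 RPM at P10 and 24.6 RPM at P0. Its log2 fold change of 0.91 ± 0.21 (adjusted p = 0.0019) was below the threshold of 1, and passed it with median-of-ratios scaling (1.01) and without P0 replicate 2 (1.11) or P10 replicate 2 (1.08).

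In IFT-B, Ift57, Ift81, Ift172 and Ift80 rose and the other 6 genes were not called. Ift57 (chr16:49699294-49765126), a peripheral subunit, had 17.2 and 13.3 RPM at P0, 20.0 and 21.4 RPM in P4 CD73-, 37.0 and 45.8 RPM in P4 CD73+, 51.2 and 57.7 RPM at P6, and 75.1 and 77.7 RPM at P10. No neighbouring groups overlap, and the P10 against P0 log2 fold change was 2.26 ± 0.21 (adjusted p = 1.6e-07). Ift81, which helps to carry tubulin together with IFT74, averaged 95.0 RPM at P10 and 22.9 RPM at P0 (2.00 ± 0.18). Its partner Ift74 averaged 80.2 RPM at P10 and 63.6 RPM at P0 and was not called (0.33 ± 0.16, adjusted p = 0.1). Ift172, a large peripheral subunit, averaged 50.7 RPM at P10 and 20.1 RPM at P0 (1.30 ± 0.21), and Ift80 95.7 and 46.3 RPM (1.08 ± 0.23). The Ift80 call was lost without P0 replicate 2 (0.65) and without P10 replicate 2 (0.90).

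Ift20 (chr11:78536361-78541732), the subunit that also sits at the Golgi, had 78.3 and 64.0 RPM at P0, 124 and 117 RPM in P4 CD73-, 140.0 and 106 RPM in P4 CD73+, 138 and 129 RPM at P6, and 123 and 132 RPM at P10. P0 was the lowest, and all values of the other groups lay within the span of the P4 CD73+ pair, with a P10 against P0 value of 0.84 ± 0.16 (adjusted p = 0.00037), below the fold threshold. Ift88, the subunit mutated in the Tg737 mouse, averaged 37.4 RPM at P10 and 22.8 RPM at P0 (0.69 ± 0.27). Ift27, a small GTPase of the complex, averaged 58.4 RPM at P10 and 49.6 RPM at P0 (0.23 ± 0.18, adjusted p = 0.3), and Ift52, a core scaffold, 44.2 and 42.9 RPM (0.03 ± 0.20, adjusted p = 0.91). Ift46, another core subunit, averaged 47.5 RPM at P10 and 69.7 RPM at P0 (-0.54 ± 0.17, adjusted p = 0.015), under the fold threshold.

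The motor and cargo genes did not share a direction. Arl3 (chr19:46531109-46573182), the GTPase that releases lipidated cargo inside the cilium, had 44.0 and 56.8 RPM at P0, 65.9 and 61.6 RPM in P4 CD73-, 104 and 65.1 RPM in P4 CD73+, 151 and 118 RPM at P6, and 225 and 212 RPM at P10. The P4 CD73+ libraries were far apart and overlap P4 CD73-, and P10 was clear of all others (P10 against P0 2.10 ± 0.20, adjusted p = 2.9e-07). Kif3a (chr11:53565701-53604248), a subunit of the main kinesin-2 motor, had 145 and 132 RPM at P0, 122 and 112 RPM in P4 CD73-, 135 and 148 RPM in P4 CD73+, 93.3 and 122 RPM at P6, and 106 and 116 RPM at P10. Its P10 against P0 value of -0.31 ± 0.15 (adjusted p = 0.096) was not called, although both P10 libraries lay below both P0 libraries. Tulp3, an adaptor that hands receptors to IFT-A, had 17.1 and 19.6 RPM at P0, 4.47 and 8.06 RPM in P4 CD73-, 12.1 and 18.0 RPM in P4 CD73+, 14.4 and 22.1 RPM at P6, and 6.19 and 7.42 RPM at P10. The P4 CD73- and P10 libraries were below all others. It fell at P10 against P0 (-1.31 ± 0.35, adjusted p = 0.0044). Kif17 was listed at 0 to 1.68 RPM in the retina, where 1 read was worth 0.179 to 0.387 RPM.

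**Figure D3:**
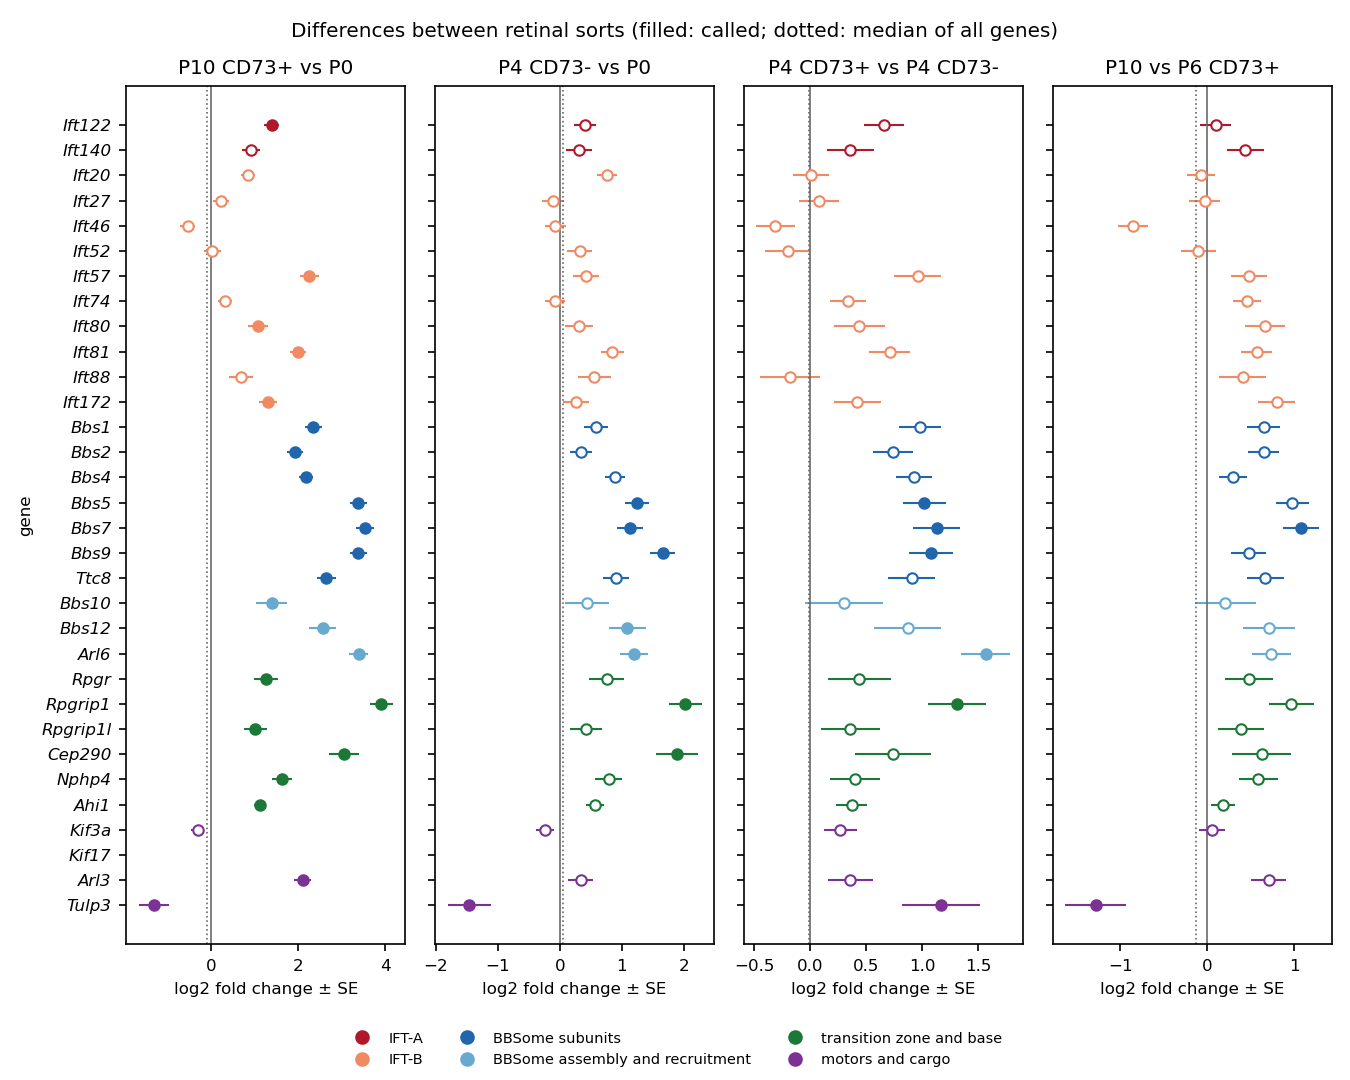
Log2 fold changes with SE of the 31 genes tested in 4 retinal comparisons (one panel each, limma on log2(RPM + 1)). Filled points are called, the dotted line is the median of all genes, and P6 against P4 CD73+, with no gene called, is not drawn. Every BBSome and transition zone point is filled for P10 against P0, and Tulp3 is the lone filled point left of 0 in the panels that have one.

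Between the GFP-sorted groups the differences were fewer. In P4 CD73- against P0, 7 of the 31 genes rose and Tulp3 fell, against 5.24% of all genes called higher and 5.77% lower, and the median was 0.56, beside 0.06 for all genes. Rpgrip1 (2.03 ± 0.26), Cep290 (1.90 ± 0.34), Bbs9 (1.66 ± 0.20), Bbs5 (1.25 ± 0.19), Arl6 (1.20 ± 0.22), Bbs7 (1.14 ± 0.21) and Bbs12 (1.09 ± 0.30) were the genes that rose. No IFT gene was called with all libraries, and Tulp3 stood at -1.46 ± 0.35. The proliferation markers summed to 163 and 402 RPM in P4 CD73-, against 2072 and 1744 RPM at P0, the retinal progenitor markers to 559.8 and 721.5 RPM, against 1158 and 1270 RPM at P0, and the photoreceptor markers to 6933 and 6195 RPM, against 2812 and 2508 RPM at P0. Their part in the result was not tested. The count of members called higher was 4 to 10 with 1 library left out. It was 10 without P0 replicate 1, where Bbs4 (1.05), Nphp4 (1.11), Rpgr (1.14) and Ttc8 (1.19) passed. Without P4 CD73- replicate 2 the IFT-B gene Ift81 was called (1.05, adjusted p = 0.0034, limma), as was Bbs4 (1.01), and without P4 CD73- replicate 1 Nphp4 was (1.02). Without P0 replicate 2 the values of Arl6 (0.68), Bbs5 (0.91) and Bbs7 (0.89) were below the threshold, Bbs12 lost its call without P0 replicate 1 (0.78) or P4 CD73- replicate 1 (0.74), and Tulp3 lost it without P4 CD73- replicate 1 (-1.09).

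At day 4 the CD73+ and CD73- sorts can be compared at the same age, although only the CD73- cells were gated on GFP. In P4 CD73+ against P4 CD73-, 6 genes rose and 0 fell by limma, against 3.43% of all genes called higher and 2.43% lower. The median was 0.44, beside -0.01 for all genes. At an unadjusted p under 0.05 in limma, 16 were above and 0 below, a looser rule that was not counted over all genes. Arl6 averaged 473 RPM in CD73+ cells and 158 RPM in CD73- cells (1.57 ± 0.22, adjusted p = 0.00021, limma). Rpgrip1 averaged 530.5 RPM in CD73+ and 216 RPM in CD73- cells (1.31 ± 0.26), Bbs7 92.3 and 41.6 RPM (1.13 ± 0.21), Bbs9 147.5 and 70.5 RPM (1.08 ± 0.20) and Bbs5 112.5 and 55.0 RPM (1.02 ± 0.19). Tulp3 averaged 15.1 RPM in CD73+ cells and 6.26 RPM in CD73- cells (1.17 ± 0.35). The values of the 7 BBSome subunits were 0.74 to 1.13, and 3 of them reached the threshold. The 5 microglial and myeloid markers summed to 10.1 and 4.41 RPM in CD73+, against 46.5 and 122.5 RPM in CD73- cells. The proliferation markers overlapped, at 198 and 473 RPM in CD73+ and 163 and 402 RPM in CD73- cells (replicates 1 and 2). Replicate 2 was the higher in both sorts, and CD73+ was the higher within each replicate number. The bipolar markers summed to 74.9 and 54.6 RPM in CD73+, against 46.8 and 38.0 RPM in CD73- cells, and the photoreceptor markers to 9176 and 7852 RPM, against 6933 and 6195 RPM. The part of these lists in the result was not tested. Tulp3 lost its call without P4 CD73- replicate 1 (0.80), P4 CD73+ replicate 1 (1.44) or P4 CD73+ replicate 2 (0.90), Rpgrip1 without P4 CD73- replicate 2 (1.06, adjusted p = 0.053), Bbs9 without P4 CD73- replicate 2 (0.74) or P4 CD73+ replicate 1 (0.92), and Bbs5 without P4 CD73- replicate 1 (0.98) or P4 CD73+ replicate 1 (0.97). Other members gained a call: Bbs1 without P4 CD73+ replicate 2 (1.10) or P4 CD73- replicate 1 (1.16), Bbs4 without P4 CD73+ replicate 1 (1.04) or P4 CD73- replicate 1 (1.05), and Ttc8 without P4 CD73+ replicate 2 (1.09). Bbs12 did so without P4 CD73- replicate 1 (1.23), and the IFT-B gene Ift57 without P4 CD73+ replicate 1 (1.11) or P4 CD73- replicate 2 (1.00).

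From day 4 to day 6 within the CD73+ sort no cilium gene was called by limma in either direction, against 1.56% of all genes called higher and 1.14% lower. At an unadjusted p under 0.05 in limma, 2 were above (Ift46 and Arl3) and 2 below (Ift74 and Kif3a). That looser rule was not counted over all genes. The median of the 31 genes was 0.01, beside 0.00 for all genes. The largest values were those of Ift46, with 86.1 RPM at P6 and 52.9 RPM in P4 CD73+ (0.69 ± 0.17, adjusted p = 0.035), and of Arl3, with 134 RPM at P6 and 84.4 RPM in P4 CD73+ (0.69 ± 0.20, adjusted p = 0.072). Arl3 was called without P4 CD73+ replicate 1 (1.02). The bipolar markers summed to 255 and 289 RPM at P6, against 74.9 and 54.6 RPM in P4 CD73+. In the same order, the amacrine, horizontal and ganglion cell list summed to 173 and 176 RPM, against 34.2 and 50.2 RPM. The retinal progenitor markers summed to 1010 and 1049 RPM, against 629 and 896 RPM. Lower at P6 were the proliferation markers, at 73.6 and 63.5 RPM, against 198 and 473 RPM. The part of these lists in the result was not tested.

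P10 against P6 brought few calls. Bbs7 rose (1.08 ± 0.21, adjusted p = 0.0017, limma) and Tulp3 fell (-1.28 ± 0.35, adjusted p = 0.017, limma), against 3.33% of all genes called higher and 7.62% lower. With 1 of 31 genes called each way, the count higher is near the share of all genes and the count lower is below it. The median of the 31 genes was 0.48, beside -0.13 for all genes, and 26 of 31 values were above 0. Bbs5 (0.98 ± 0.19) and Rpgrip1 (0.97 ± 0.26, adjusted p = 0.014) were just under the fold threshold, and both were called when libraries were scaled by the median of ratios (1.12 and 1.11) or by quantiles (1.00 and 1.05). Those scalings brought the median of all genes to 0.00 and -0.01 and the share of calls that were higher to 41.5% and 46.4%, against 30.4% before. Bbs7 fell below the threshold without P6 replicate 1 (0.93) or P10 replicate 2 (0.80, adjusted p = 0.053), and Tulp3 lost its call without P6 replicate 2 (-0.98), P10 replicate 1 (-1.16) or P10 replicate 2 (-1.39). Bbs5 was called without P10 replicate 1 (1.06) or P6 replicate 2 (1.07), and Rpgrip1 without P6 replicate 2 (1.35). The photoreceptor markers summed to 24910 and 28160 RPM at P10, against 10610 and 9325 RPM at P6, and the bipolar markers to 651 and 584 RPM at P10, against 255 and 289 RPM at P6. The amacrine, horizontal and ganglion cell list, again mostly Isl1, summed to 243 and 224 RPM at P10, against 173 and 176 RPM at P6. Lower at P10 were the proliferation markers (13.5 and 9.25 RPM, against 73.6 and 63.5 RPM at P6), the Muller glia markers (243.9 and 293.1 RPM, against 578 and 554 RPM), the retinal progenitor markers (666.5 and 479.8 RPM, against 1010 and 1049 RPM) and the endothelial markers (25.7 and 20.5 RPM, against 60.8 and 70.6 RPM). Their part in the result was not tested.

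How far the retinal levels stand from those of other BLIMP1-reporter lineages was addressed by contrasts of the mean of the 5 retinal group means with the mean of the groups of each other lineage. The 3 contrasts share the retinal libraries. The 32 genes summed to 1099 to 4722 RPM in the retinal libraries, against 353 to 451 RPM in B lineage, 247 to 310.5 RPM in intestine and 531 and 551 RPM in d2 PGCLC libraries, and these ranges do not overlap with the retina. In every contrast the median of all genes was itself above 0, at 0.82 against B lineage, 0.49 against intestine and 0.32 against d2 PGCLC, so gene values are to be read relative to those medians. The RPM of the rows used summed to 968095 to 978020 per retinal library and to 650799 to 960060 per B lineage library. Within the B lineage these sums were 915695 and 918554 in B cells and 960060 and 954939 in Blast. They were lower in prePB (864611 and 827448) and lowest in PB (688942 and 650799). The part of these sums in differences between B lineage groups was not tested.

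Against B lineage cells, 28 of 31 genes were called higher in the retina and 0 lower by limma, with 1 below (Ift140) at an unadjusted p under 0.05, while 45.2% of the 14131 genes tested were called higher and 13.6% lower. The median was 3.43. Every retinal library lay above every B lineage library for 24 of the 31 genes, against 31.9% of all genes. The 10 largest values by gene were led by Arl6, with 47.3 to 737 RPM (median 436) in retina and 3.23 to 10.4 RPM (median 4.26) in B lineage libraries (5.41 ± 0.17, adjusted p = 1.5e-18, limma). Ttc8 had 27.5 to 219 RPM (median 110.0) in retina and 0 to 2.835 RPM (median 1.76) in B lineage (5.32 ± 0.17), and Bbs5 17.7 to 259 RPM (median 112) and 0.300 to 3.05 RPM (median 0.894) (5.31 ± 0.15). Ahi1 (5.18 ± 0.17), Bbs4 (5.05 ± 0.15), Bbs1 (5.04 ± 0.17), Ift81 (mean 58.7 RPM in retina and 0.866 RPM in B lineage, SE of the log2 value 0.16), Bbs7 (4.84 ± 0.21), Rpgrip1 (4.49 ± 0.19) and Kif3a (4.42 ± 0.16) completed them. None of these 10 overlapped between the lineages.

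Several IFT genes were near or above the retinal level in B lineage cells. Ift20 had 64.0 to 140.0 RPM (median 124) in retina and 54.0 to 284 RPM (median 104) in B lineage (-0.00 ± 0.08, adjusted p = 1). Its B lineage values were 75.0 and 63.8 RPM in B cells, 61.2 and 54.0 RPM in Blast, 175 and 133 RPM in prePB, and 284 and 236 RPM in PB. The PB libraries were above every retinal library. Ift140 ran the other way, with 116 and 81.2 RPM in B cells, 88.3 and 62.1 RPM in Blast, 51.3 and 31.2 RPM in prePB, and 12.5 and 13.4 RPM in PB, against 21.0 to 52.5 RPM in retina. Its contrast was -0.37 ± 0.15 (adjusted p = 0.031), under the fold threshold, and it was called lower in retina after median-of-ratios scaling (-1.11), after quantile normalization (-1.28) and against splenic B cells alone (-1.48). Ift27 had 42.9 to 63.6 RPM in retina and 21.0 to 41.2 RPM in B lineage (0.69 ± 0.10), which is below the median of all genes.

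The scaling matters most in this contrast, because calls over all genes were 76.9% higher, against 59.6% with median-of-ratios scaling and 51.3% with quantile normalization. Ift52 (1.10 ± 0.10) and Ift46 (1.49 ± 0.09) fell below the threshold under both, at 0.35 and 0.74 with median-of-ratios scaling and 0.17 and 0.62 with quantile normalization. Tulp3 (1.11 ± 0.20) did so as well, at 0.42, and turned to -0.11 with quantile normalization; without Blast replicate 1 it stood at 0.94. Ift80 (1.87 ± 0.18) and Bbs10 (1.82 ± 0.20) were below the threshold with quantile normalization alone, at 0.96 and 0.64. With P0 as the only retinal group, the values of Bbs9 and Ift52 were 0.75 and 0.97, and with splenic B cells as the only B lineage group those of Ift172 and Ift52 were 0.42 and 0.44. With a pseudocount of 4, Ift52 stood at 0.98 and Tulp3 at 0.82.

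**Figure D4:**
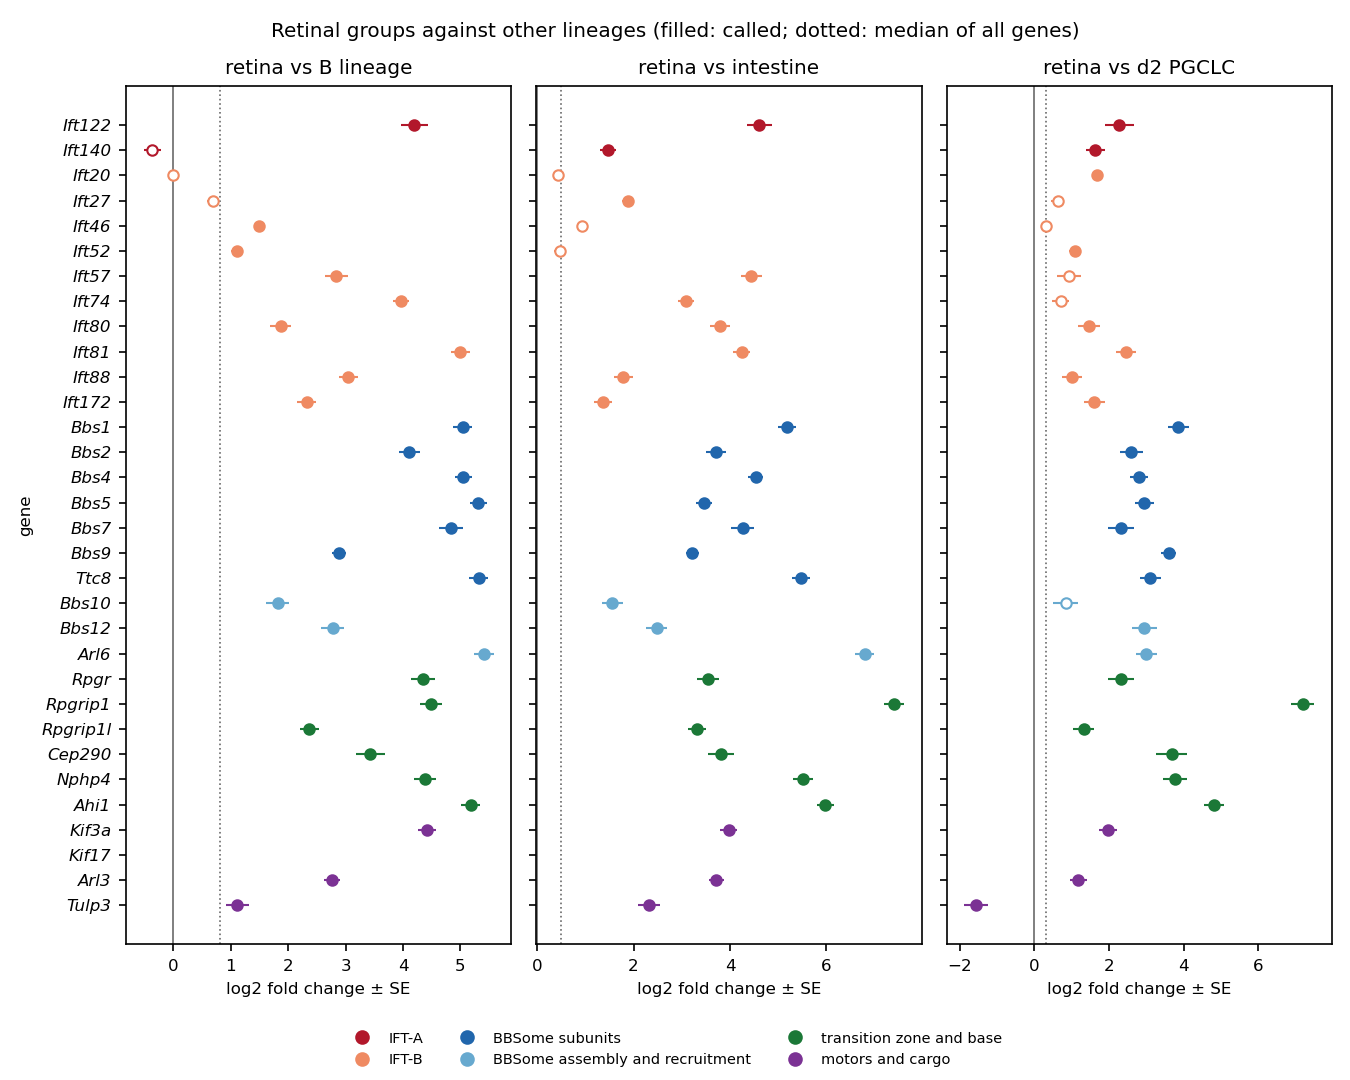
Log2 fold changes with SE of retina against B lineage, intestine and d2 PGCLC for the 31 genes tested (limma on log2(RPM + 1), filled points called, dotted line the median of all genes). All BBSome and transition zone points lie right of the dotted line in each panel, and all are filled except Bbs10 against d2 PGCLC. Ift20 and Ift52 lie near that line in the intestinal panel.

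Against intestinal epithelium, 28 of 31 genes were called higher in retina and 0 lower by limma, with 0 below at an unadjusted p under 0.05, while 37.4% of all genes tested were called higher and 19.4% lower. The median was 3.71. Every retinal library lay above every intestinal library for 26 of the 31, against 31.8% of all genes. Rpgrip1 had 38.2 to 846 RPM (median 393) in retina and 0 to 1.54 RPM (median 0.721) in intestine (7.40 ± 0.21, adjusted p = 1.8e-19, limma). Arl6 had 0.610 to 3.81 RPM (median 1.445) in intestine (6.79 ± 0.19), and Ahi1 66.3 to 153 RPM (median 123) in retina and 0.166 to 1.54 RPM (median 0.794) in intestine (5.98 ± 0.18). Nphp4 was at 0 in 4 of the 6 intestinal libraries and at most 0.497 RPM, against 20.5 to 84.5 RPM in retina (5.52 ± 0.21). Ttc8 (5.47 ± 0.18), Bbs1 (5.18 ± 0.19), Ift122 (4.61 ± 0.26), Bbs4 (4.53 ± 0.16), Ift57 (4.44 ± 0.22) and Bbs7 (4.26 ± 0.23) followed. Ift46 (0.93 ± 0.10), Ift52 (0.47 ± 0.11) and Ift20 (0.44 ± 0.09) were not called, and their ranges overlap with those of the retina. Calls over all genes were 65.9% higher, against 51.5% with median-of-ratios scaling and 52.3% with quantile normalization, and with median-of-ratios scaling and quantile normalization in turn Ift172 (1.37 ± 0.19) stood at 0.89 and 0.88 and Ift140 (1.47 ± 0.17) at 0.98 and 0.96. With P0 as the only retinal group, Bbs12 (0.98), Ift172 (0.82), Bbs10 (0.81) and Ift140 (1.00, just under 1 before rounding) were not called. Ift46 was called with P0 as the only retinal group (1.06) and with E16.5 as the only intestinal group (1.29).

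Against d2 PGCLC, 25 of 31 genes were called higher in retina and 1, Tulp3, lower, while 32.7% of all genes tested were called higher and 18.0% lower. The median was 2.27. Every retinal library lay above both d2 PGCLC libraries for 26 of the 31, against 34.8% of all genes. Rpgrip1 had 1.17 and 0.741 RPM in d2 PGCLC (7.19 ± 0.31, adjusted p = 3.7e-15, limma) and Ahi1 2.33 and 3.71 RPM (4.81 ± 0.27). Bbs1 (3.85 ± 0.28), Nphp4 (3.77 ± 0.32), Cep290 (3.68 ± 0.41), Bbs9 (3.60 ± 0.20), Ttc8 (3.10 ± 0.28), Arl6 (3.00 ± 0.28), Bbs12 (2.95 ± 0.33) and Bbs5 (2.95 ± 0.25) were next. Tulp3 had 4.47 to 22.1 RPM (median 13.25) in retina and 40.2 and 31.9 RPM in d2 PGCLC (-1.55 ± 0.32, adjusted p = 0.00018), with no overlap. The IFT-B genes Ift57 (0.93 ± 0.33), Ift74 (0.71 ± 0.23), Ift27 (0.63 ± 0.17) and Ift46 (0.32 ± 0.15) and the assembly gene Bbs10 (0.84 ± 0.33) were not called. With P0 as the only retinal group, Bbs7 (0.44), Arl3 (0.27), Ift88 (0.63), Ift52 (0.96), Ift80 (0.96), Rpgrip1l (0.74), Arl6 (1.00, just under 1 before rounding) and Tulp3 (-0.93) were not called. Calls over all genes were 64.5% higher, against 49.0% with quantile normalization. Ift52 (1.08 ± 0.16), Ift88 and Arl3 were below the threshold with median-of-ratios scaling (0.82, 0.75 and 0.91) and with quantile normalization (0.59, 0.46 and 0.80), and Rpgrip1l (1.32 ± 0.28) and Ift80 (1.47 ± 0.30) with quantile normalization alone (0.77, and 1.00, just under 1 before rounding). With a pseudocount of 4, Ift52 stood at 0.99 and Ift88 at 0.89. Ift88 (1.01 ± 0.28) and Arl3 (1.18 ± 0.23) also lost their calls without d2 PGCLC replicate 2, at 0.94 and 0.87, and Ift88 stood at 0.92 to 0.99 without any 1 of P0 replicate 1, P4 CD73- replicate 2, P4 CD73+ replicate 1, P6 replicate 2 or P10 replicate 2.

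In all 3 contrasts together 22 of the 31 genes were called higher in retina, among them all 7 BBSome subunits and all 6 transition zone genes, and in the contrasts with B lineage and intestine 26 were. Of all 14131 genes tested, 22.4% were called higher in all 3 contrasts and 31.3% in those with B lineage and intestine, and the contrasts share the retinal libraries.

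The row that holds the gene ID of Ift43, an IFT-A subunit, is named 1700019E19Rik in the table, a RefSeq synonym. It had 104 and 121 RPM at P0, 90.8 and 95.8 RPM in P4 CD73-, 114 and 106 RPM in P4 CD73+, 125 and 116 RPM at P6, and 151 and 171 RPM at P10 (P10 against P0 0.51 ± 0.14, adjusted p = 0.0063, under the fold threshold). It was 90.8 to 171 RPM in retina and at most 2.27 RPM in B lineage (6.11 ± 0.17), 32.4 to 41.25 RPM in intestine (1.65 ± 0.19) and 44.3 and 44.9 RPM in d2 PGCLC (1.38 ± 0.29).

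A wider list of 78 cilium genes outside the set, of which 68 had rows, was read in the same fits. In P10 against P0, 25 of 59 tested rose and 5 fell, against 15.8% of all genes called higher and 20.1% lower, with a median of 0.88, beside -0.10 for all genes. The largest rises were in Rp1, an axonemal protein of photoreceptors, with 2030 RPM at P10 and 19.3 RPM at P0 (6.65 ± 0.14), Tulp1, a photoreceptor relative of Tulp3, with 311 and 20.2 RPM (3.94 ± 0.23), and Wdr60, a subunit of the retrograde dynein, with 112 and 14.8 RPM (2.84 ± 0.16). Unc119, a carrier of lipidated cargo, averaged 2246 RPM at P10 and 328.5 RPM at P0 (2.77 ± 0.16), and Mak, a ciliary kinase, 487 and 78.1 RPM (2.63 ± 0.15). By sublist, 8 of 16 IFT, motor and dynein genes, 1 of 5 BBSome-related genes, 6 of 14 transition zone genes and 7 of 9 photoreceptor cilium and cargo genes rose. In P4 CD73- against P0, 7 of 59 rose and 2 fell, against 5.24% and 5.77% of all genes. The largest rises were in Rp1 (3.28 ± 0.14), Wdr60 (2.54 ± 0.16), Tulp1 (2.12 ± 0.23), Mak (1.59 ± 0.15) and Unc119 (1.48 ± 0.16), and Rsph1 (-2.49 ± 0.60), a radial spoke protein, and Rfx2 (-1.43 ± 0.33), an RFX factor, fell. In P4 CD73+ against P4 CD73-, Rp1 (2.18 ± 0.14), Tulp1 (1.48 ± 0.23), Arl13b (1.20 ± 0.19), a ciliary membrane GTPase, and Tmem17 (1.17 ± 0.30), a transition zone protein, rose and Smo (-1.07 ± 0.22), the Hedgehog signal transducer, fell, so 4 of 59 rose and 1 fell, against 3.43% and 2.43% of all genes. In P10 against P6, Rp1 (1.19 ± 0.14) and Ttc26 (1.06 ± 0.33), an IFT-B subunit, rose and Smo (-2.51 ± 0.22) fell, a count of 2 of 59 higher that is near the 3.33% of all genes called higher, with 7.62% called lower, and in P6 against P4 CD73+ 0 of the 59 were called by limma. Against the other lineages, 51 of 62 were called higher and 1 lower in retina against B lineage, beside 45.2% and 13.6% of all genes (median 2.44, beside 0.82 for all genes). Against intestine 50 were called higher and 0 lower, beside 37.4% and 19.4% (median 2.09, beside 0.49), and against d2 PGCLC 36 higher and 2 lower, beside 32.7% and 18.0% (median 1.20, beside 0.32).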

How the data were processed

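The 3' RNA-seq libraries of 13 sorted groups, 2 each, were used as deposited. Per the submitters' processing notes, cutadapt 1.11, TopHat 1.4.1, Bowtie 1.0.1 and Cufflinks 2.2.0 were used with the mm10 genome, and the name of the deposited table gives the unit as RPM. The deposited values are thus a signal normalized by the authors to library size (RPM), with spike-in lines in the same table. Of 26310 lines, 25146 were used, and 1164 lines whose cells are moved against the header, 92 spike-in and 1072 gene lines, were left out. The design had foreseen RPM. The unit is recorded as signal because whole columns, spike-in and moved lines included, exceed the total that RPM allows. With the commonest value above 0 of a library taken as 1 read, 73.2% to 86.7% of its low values were whole reads within 0.02 reads. That was too few to recover counts, so no count test was run.

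All computed values start from log2(RPM + 1) and limma 3.58.1 (R 4.3.3) with an intensity trend and Benjamini-Hochberg adjustment over all genes tested. Genes with at least 5 RPM in 2 libraries of the fit were kept. The 5 retinal comparisons share 1 fit of 10 libraries (11704 genes), and the 3 contrasts between lineages 1 fit of 26 libraries (14131 genes), with 1 coefficient per group. SE is that of limma. The fit was run on simulated data with a single fixed spread and changes only in genes averaging at least 10 RPM. Those data do not cover changes of low genes or shifts in scaling between lineages. Alternatives were pseudocounts of 0.5 and 4, no filter, a filter at 10 RPM, median-of-ratios scaling, quantile normalization, the replicate number as a block and each library left out. Restricting the lineage contrasts to P0, to splenic B cells or to E16.5 intestine was added after seeing the data. Tables were handled with Python 3.11.15 and pandas 2.3.3.

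The members and lists were chosen with earlier results of these data known. Every member is named with its level. Values in every retinal library are given for the 12 called members with the largest change in P10 against P0 and for the member with the highest retinal mean in each role, and for Tulp3 and 1700019E19Rik, chosen after their values were seen. The contrasts between lineages name the 10 largest called, and the wider list the 5 largest called in each direction.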

Additional observations from a re-analysis of the deposited data

How the results depend on the processing

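Of 121 called results for single members, 87 kept their call and direction under every alternative run. Of 2405 alternative values, 2324 kept the call, 80 were no longer called and 1 reversed: Tulp3 in retina against B lineage stood at -0.11 with quantile normalization. The cause was not tested. With a pseudocount of 4, Rpgrip1l in P10 against P0 (0.90), Bbs12 in P4 CD73- against P0 (0.84) and Bbs5 and Tulp3 in P4 CD73+ against P4 CD73- (0.98 and 0.90) were below the fold threshold. With no filter on low values, Bbs12 in P4 CD73- against P0 (1.09), Tulp3 (1.17) and Rpgrip1 (1.31) in P4 CD73+ against P4 CD73- and Tulp3 in P10 against P6 (-1.28) had an adjusted p of 0.05 or more in limma. With no filter, genes called in P6 against P4 CD73+ numbered 111, against 316, and members called lower in P10 against P6 0, against 1. With median-of-ratios scaling and with quantile normalization, 3 members were called higher in P10 against P6, against 1, and 1 was called lower in retina against B lineage, against 0. That count was also 1 with splenic B cells as the only B lineage group. With P0 as the only retinal group, 0 members were called lower against d2 PGCLC, against 1.

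With each library left out in turn, members called higher and lower numbered 20 to 22 and 1 in P10 against P0, 4 to 10 and 0 to 1 in P4 CD73- against P0, 5 to 7 and 0 in P4 CD73+ against P4 CD73-, 0 to 1 and 0 in P6 against P4 CD73+, and 0 to 3 and 0 to 1 in P10 against P6. Genes called over the whole table numbered 3912 to 4081, 809 to 1276, 443 to 706, 115 to 278 and 776 to 1096 in these 5 comparisons. Against B lineage, intestine and d2 PGCLC, 27 to 28, 28 and 23 to 25 members were called higher and 0, 0 and 1 lower, with 8215 to 8313, 7949 to 8040 and 6814 to 7164 genes called. Where only 1 library of a group is left, it is assumed to vary like the other groups.

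The replicate numbers are shared between groups, but the labels do not say that they pair libraries, and the deviations of same-numbered libraries correlated at -0.06 to 0.24 (median 0.01, 78 pairs of groups). With the replicate number as a block, the counts of members called were the same in all 8 comparisons, and genes called numbered 4219 in P10 against P0, 1314, 704, 335 and 1292 in the other retinal comparisons in the order above, and 8309, 8021 and 7153 against the other lineages. The block is a single term shared by all groups, so it cannot show a pairing held by some groups only. In both day 4 sorts the proliferation markers were higher in replicate 2 (402 RPM in CD73- and 473 RPM in CD73+) than in replicate 1 (163 and 198 RPM). These sorts were tested unpaired. Depth limits the low genes: at 0.166 to 0.583 RPM per read, differences between values near 0 were not detectable.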

Other observations

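Of 4 motile cilium genes tested in P10 against P0, 3 fell, against 20.1% of all genes called lower: Rsph1, a radial spoke protein, with 0.337 RPM at P10 and 30.2 RPM at P0 (log2 fold change -4.59 ± 0.60, adjusted p = 8.3e-06, limma), Tekt1, an axonemal tektin, with 0.933 and 10.9 RPM (-2.63 ± 0.45), and Ccdc40, an axonemal ruler protein, with 2.25 and 10.2 RPM (-2.09 ± 0.55). Ccdc39, the partner of Ccdc40, was not called (1.00 ± 0.29). Of 7 genes tested for ciliary signalling and the centriole, 2 rose and 1 fell, against 15.8% and 20.1% of all genes. Arl13b, a ciliary membrane GTPase, averaged 101.5 RPM at P10 and 16.7 RPM at P0 (2.54 ± 0.19), and Cep164, a protein of the distal appendages, 57.3 and 21.3 RPM (1.41 ± 0.28). Smo, the Hedgehog signal transducer that acts in the cilium, averaged 5.84 RPM at P10 and 104 RPM at P0 (-3.95 ± 0.22, adjusted p = 6.1e-10). It was also lower in P4 CD73+ than in P4 CD73- cells (45.4 and 94.7 RPM, -1.07 ± 0.22) and at P10 than at P6 (5.84 and 37.8 RPM, -2.51 ± 0.22). Rfx2, an RFX factor, averaged 13.6 RPM at P10 and 29.1 RPM at P0 (-1.01 ± 0.33, adjusted p = 0.016), and 9.81 RPM in P4 CD73- (-1.43 ± 0.33 against P0). The proliferation markers summed to 13.5 and 9.25 RPM at P10, against 2072 and 1744 RPM at P0, and their part in these values was not tested.

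Between lineages, Tctn1, a transition zone protein, was lower in retina, at 1.97 RPM, against 21.5 RPM in B lineage (-2.32 ± 0.15, adjusted p = 6.1e-13, limma). Invs, a protein of the inversin compartment, averaged 31.8 RPM in retina and 76.0 RPM in d2 PGCLC (-1.26 ± 0.21), and Smo 57.6 and 85.2 RPM (-1.06 ± 0.24). The largest retinal excess in the wider cilium list was in Rp1, with 803 RPM in retina, against 0.925 RPM in B lineage (7.60 ± 0.16) and 0.528 RPM in intestine (7.92 ± 0.17), and listed at 0 in both d2 PGCLC libraries. Mak averaged 296.5 RPM in retina, against 0.486 RPM in B lineage (7.50 ± 0.18), 0.574 RPM in intestine (7.42 ± 0.20) and 1.695 RPM in d2 PGCLC (6.58 ± 0.29). Tulp1 averaged 179.7 RPM in retina, with differences of 6.67 ± 0.18, 6.94 ± 0.20 and 6.32 ± 0.30 from these lineages in the same order, and Unc119 1336 RPM, with 5.87 ± 0.10, 6.31 ± 0.11 and 5.25 ± 0.16. Cc2d2a, a transition zone protein, averaged 104 RPM in retina, against 0.173 RPM in B lineage (6.34 ± 0.16), with a difference of 2.87 ± 0.27 from d2 PGCLC, and Lca5, a ciliary protein of photoreceptors, 73.7 RPM, against 0.270 RPM in intestine (5.77 ± 0.22).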
